A study of Mus musculus with 4 samples.

Results

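Neutrophils were examined in subcutaneous tumours of C57BL/6J mice by droplet single-cell RNA sequencing. Barcodes were chosen by a rule on measured values, their counts of unique molecular identifiers (UMIs), the tags that mark single captured RNA molecules, and those it selected are called neutrophils. A barcode had to hold at least 300 genes and 500 UMIs, with at most 20% mitochondrial UMIs. It needed at least 30 UMIs per 10000 of S100a8, S100a9, Csf3r, Cxcr2, G0s2 and Retnlg together, and at least 2 of the first 5 of these genes detected. Fewer than 20 per 10000 of 7 tumour cell genes, and no UMI of Adgre1, C1qa, Cd3d, Cd3e or Cd3g, completed the rule. It selected 890 of 42710 barcodes that passed the quality limits.

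The tumours were started by injecting cells of MC38, a colon carcinoma line of the mouse, that carried a knockout of Hnrnpa2b1 (KO) or did not (WT), with 2 tumours in each group. The mice were 8 weeks old. All hosts were of the same strain, and the knockout was made in the injected cells, so the neutrophils of both groups are host cells whose own gene was not targeted. No treatment of the mice beyond the injection is given, and the labels do not say that the 2 tumours of a group came from separately edited clones. Whole tumours were digested and no sorting step is stated. Of the neutrophil barcodes, 367 and 235 came from KO tumours 1 and 2, and 33 and 255 from WT tumours 1 and 2.

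Neutrophils are short-lived granulocytes made in the bone marrow, released under the cytokine G-CSF acting on its receptor Csf3r, and drawn into tissue by chemokines that bind Cxcr2. They carry ready-made granules of antimicrobial proteins and proteases, and S100a8 with S100a9 forms calprotectin, the main protein of their cytosol. In tumours they are known for living longer, for making cytokines and chemokines of their own, and for acting either against the tumour or against T cells. Type I interferon is a known driver of an antitumour state in mouse neutrophils, and its target genes are switched on through interferon-stimulated response elements in their promoters.

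Of 45 type I interferon response genes tested, 3 rose in KO neutrophils when all neutrophil barcodes were used, where 11% of all genes tested rose. None of the list passed in barcodes up to 5000 UMIs, where its median log2 fold change was -0.14. The promoters of the 3 are shown because they are the members of that list on which its counts turn. The sequences run from 250 bases before to 50 bases after the RefSeq gene start on GRCm38.p6, read 5′ to 3′ on the strand of the gene. Capitals mark a match to the core GAAANNGAAA of the interferon-stimulated response element, searched on both strands. Rsad2 lies on the minus strand at chr12:26456403-26456702, Slfn1 on the plus strand at chr11:83116570-83116869, and Trim30a on the minus strand at chr7:104465144-104465443. Trim30a has 2 starts in the table, of which the first is shown.
Rsad2: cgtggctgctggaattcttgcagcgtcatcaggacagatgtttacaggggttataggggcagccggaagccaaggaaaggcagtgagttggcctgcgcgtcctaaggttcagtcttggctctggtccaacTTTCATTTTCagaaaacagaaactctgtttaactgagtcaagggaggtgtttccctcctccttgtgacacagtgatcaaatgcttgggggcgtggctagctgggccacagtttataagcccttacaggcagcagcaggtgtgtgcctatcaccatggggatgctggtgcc
Slfn1: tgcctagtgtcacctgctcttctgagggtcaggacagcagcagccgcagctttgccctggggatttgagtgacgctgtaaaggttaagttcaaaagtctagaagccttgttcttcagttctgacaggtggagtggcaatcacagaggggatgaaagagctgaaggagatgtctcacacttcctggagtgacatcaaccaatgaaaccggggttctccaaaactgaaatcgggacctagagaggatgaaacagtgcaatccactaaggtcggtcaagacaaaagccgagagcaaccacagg
Trim30a: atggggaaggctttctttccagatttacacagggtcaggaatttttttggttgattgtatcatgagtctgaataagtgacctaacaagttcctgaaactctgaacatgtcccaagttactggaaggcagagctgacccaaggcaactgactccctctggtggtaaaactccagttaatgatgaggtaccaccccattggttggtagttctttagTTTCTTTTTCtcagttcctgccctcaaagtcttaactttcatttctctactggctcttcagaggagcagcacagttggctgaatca
The Rsad2 and Trim30a windows each held 1 match, on the opposite strand, and the Slfn1 window held none. The core occurred in 1131 of 32851 promoter windows of this length, or 3.44%.

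The 4 libraries held 114136609 and 132490304 UMIs in KO tumours and 153162562 and 123655955 in WT tumours. No neutrophil barcode was shared between libraries, and 23 to 43 barcodes of any kind were shared by each pair. Neutrophil barcodes were shallow, with medians of 1799 and 1179 UMIs in KO tumours and 1098 and 1179 in WT tumours, against 6472 to 7408.5 and 4186 to 7836.5 in mononuclear phagocytes of KO and WT tumours. Just inside the limit of the rule, at 30 to 40 per 10000 of its genes, lay 21 and 10 barcodes of KO tumours and 1 and 16 of WT tumours. Just outside it, at 20 to 30, lay 19 and 10 barcodes of KO tumours and 0 and 11 of WT tumours.

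The barcodes carried the neutrophil profile beyond the genes that chose them. Of 15 neutrophil markers outside the rule, 15 and 15 had a UMI in the sums of KO tumours and 14 and 15 in those of WT tumours. All 11 phagocyte markers did so too in KO tumour 1 and WT tumour 2, so levels are given as well. The 15 neutrophil markers summed to 204 and 217 per 10000 UMIs in KO tumours and 89.0 and 100 in WT tumours. Phagocyte markers summed to 16.2 and 14.8 in KO tumours and 7.61 and 5.93 in WT tumours. The 10 fibroblast markers summed to 11.6 and 4.55 in KO tumours and 12.1 and 28.6 in WT tumours. Levels below are in UMIs of a gene per 1000000 UMIs of the sum (CPM), as the mean over the 4 tumours. S100a9 stood at 16592 CPM and S100a8 at 13289 CPM, with Csf3r at 739, Cxcr2 at 643 and G0s2 at 1063 CPM. These chose the barcodes and are given as a description. Of the genes outside the rule that were at least 8 times as high as in mononuclear phagocytes, monocytes and the T and NK cells, the highest was Cxcl2, a ligand of Cxcr2, at 13230 CPM. The chemokine Ccl4 followed at 5260 CPM, Acod1, which makes itaconate, at 2909 CPM and the chemokine Ccl3 at 2868 CPM. Next came Hdc, which makes histamine, at 1911 CPM. Il1r2, a decoy receptor for interleukin 1, stood at 1765 CPM and Hcar2, a receptor for hydroxybutyrate and niacin, at 1271 CPM. The lowest of the 3 ratios was 12.8 for Cxcl2 and 50.8 for Hdc.

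Ly6g, the surface marker by which mouse neutrophils are usually sorted, was nearly absent from the RNA. A UMI of it was found in 0.545% and 2.98% of neutrophil barcodes in KO tumours and 0% and 3.14% in WT tumours. S100a8, by contrast, was found in 89.9% and 91.1% in KO tumours and 97.0% and 94.1% in WT tumours, again by choice of the rule. Siglecf, which marks a long-lived tumour neutrophil state as well as eosinophils, gave 1 and 4 UMIs in KO neutrophils and 0 and 0 in WT neutrophils, too few for a comparison. Retnlg, a gene of mature blood neutrophils, was found in 6.81% and 13.6% of barcodes in KO tumours and 18.2% and 17.3% in WT tumours.

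Neutrophils made up a larger share of kept barcodes in KO tumours, but the groups were not separated by a test. The share was 3.92% (95% Wilson interval 3.55 to 4.33) and 2.47% (2.18 to 2.81) in KO tumours, against 0.261% (0.186 to 0.367) and 2.27% (2.01 to 2.57) in WT tumours. The KO tumours lay above both WT tumours, and WT tumour 1 stood far below the other 3. Means were 3.20 ± 1.02% in KO tumours and 1.27 ± 1.42% in WT tumours (SD, n = 2 each), a difference of 1.93 percentage points. Leaving out WT tumour 1 gave 0.923 points, leaving out KO tumour 1 gave 1.21 and leaving out WT tumour 2 gave 2.94. The exact two-sided permutation test gave p = 0.333, the smallest that 2 against 2 tumours allow. The intervals cover counting error only.

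Among leukocyte barcodes the shares overlapped. Neutrophils were 6.41% and 4.75% of leukocyte barcodes in KO tumours and 1.04% and 9.88% in WT tumours, with the 2 KO tumours between the 2 WT tumours. The means were 5.58 ± 1.18% in KO tumours and 5.46 ± 6.25% in WT tumours (SD, n = 2 each; exact permutation p = 1). The difference, 0.115 points, changed direction with the tumours used. It was -4.30 points without WT tumour 1 and -0.715 without KO tumour 1, against 4.53 without WT tumour 2 and 0.946 without KO tumour 2. Without high doublet scores it was -0.017 points. Other classes moved with the groups, with mononuclear phagocytes at 39.9% and 30.6% of kept barcodes in KO tumours against 19.9% and 14.4% in WT tumours. T and NK cells were 16.2% and 17.9% in KO tumours, against 4.53% and 5.22% in WT tumours.

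**Figure D1:**
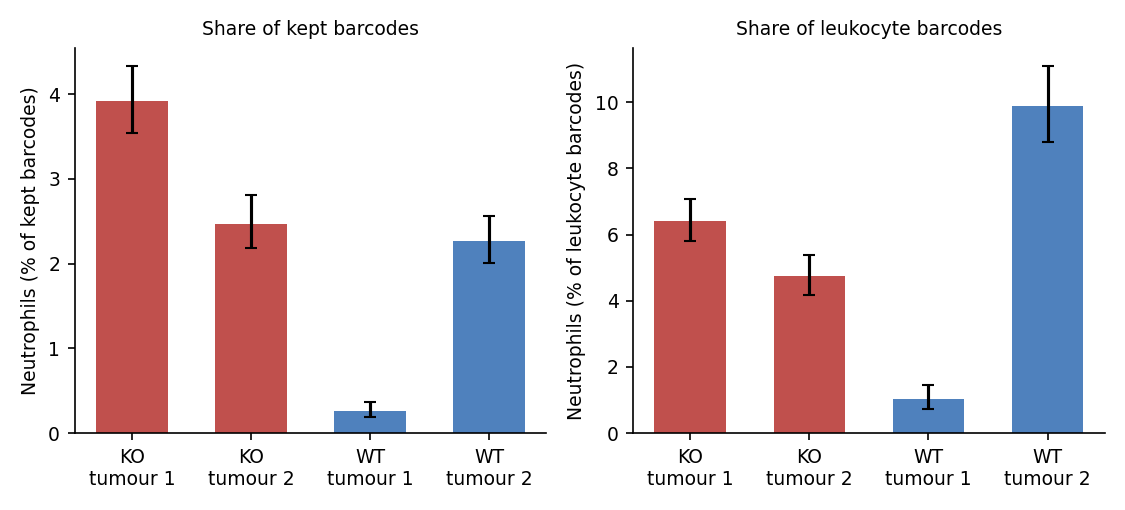
Neutrophil barcodes as a percentage of all kept barcodes and of leukocyte barcodes, 1 bar per tumour with the 95% Wilson interval of counting error, KO tumours on the left. Of kept barcodes the KO tumours stand at 3.92% and 2.47% and the WT tumours at 0.261% and 2.27%, whereas of leukocyte barcodes the WT tumours, at 1.04% and 9.88%, lie on either side of the KO tumours.

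A small number of deep barcodes weighed on the neutrophil sums, and unequally between the groups. Barcodes over 5000 UMIs numbered 7 and 3 in KO tumours and 1 and 17 in WT tumours. They held 8.56% and 8.84% of the neutrophil UMIs in KO tumours, but 34.9% and 37.5% in WT tumours. Of these 28 barcodes, 17 were among those of highest doublet score. Their neutrophil markers outside the rule summed to 79.4 and 54.0 per 10000 UMIs in KO tumours and 7.79 and 14.1 in WT tumours. In barcodes up to 5000 UMIs the same sum was 216 and 233 in KO tumours and 133 and 152 in WT tumours.

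Markers of other cells stood higher in the deep barcodes than in the rest, each in some of the tumours. The 10 fibroblast markers summed to 20.7 and 4.71 per 10000 UMIs in the deep barcodes of KO tumours, against 10.7 and 4.54 in the other barcodes. In WT tumours they summed to 16.1 and 59.8 in the deep barcodes, against 10.0 and 9.88 in the others. Tumour cell markers summed to 2.10 and 4.71 in the deep barcodes of KO tumours, against 1.91 and 2.11 in the others. In WT tumours the sums were 21.8 and 16.2 in the deep barcodes, against 5.57 and 4.06 in the others. Mast cell or basophil markers summed to 123 in the deep barcodes of KO tumour 1 and T or NK cell markers to 21.3 in the single deep barcode of WT tumour 1. Genes were therefore tested both over all neutrophil barcodes and over those up to 5000 UMIs, a limit chosen after the data were seen. Some single genes below are given over all barcodes only.

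**Figure D2:**
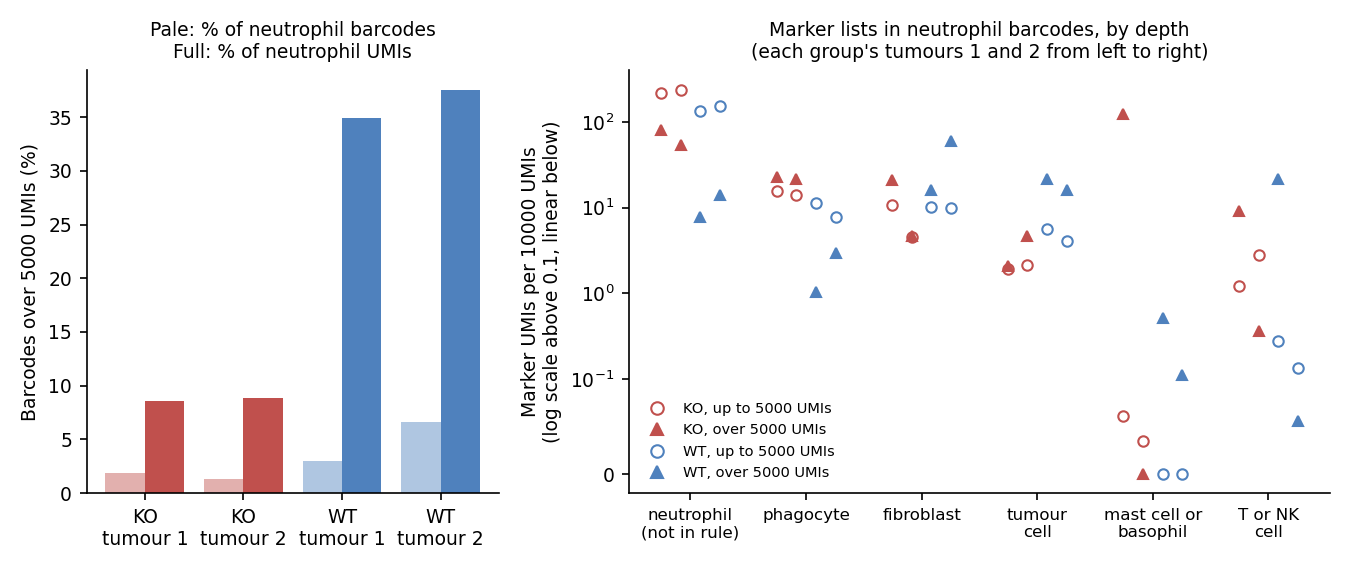
Neutrophil barcodes over 5000 UMIs in each tumour, as a percentage of barcodes (pale bars) and of neutrophil UMIs (full bars), and marker sums per 10000 UMIs in barcodes up to 5000 UMIs (open circles) and over 5000 UMIs (filled triangles). Deep barcodes are 1.91% and 1.28% of KO and 3.03% and 6.67% of WT neutrophil barcodes and hold 8.56% and 8.84% of the UMIs in KO against 34.9% and 37.5% in WT.

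An estimate of RNA free in the droplets also differed, though empty droplets were not measured. It used the profile of all deposited barcodes of each library, so RNA of other cells in doublets also counts in it. From 7 genes of other cell types, the share of neutrophil UMIs that free RNA would need to supply was estimated at 13.6% and 10.97% in KO tumours and 30.4% and 60.2% in WT tumours. In barcodes up to 5000 UMIs the estimate was 12.4% and 11.01% in KO tumours and 22.3% and 19.1% in WT tumours. Of 1271 UMIs of the 7 genes in neutrophils of WT tumour 2, 252 lay in those barcodes. Median mitochondrial shares were 1.30% and 1.31% in KO tumours and 0.806% and 3.62% in WT tumours. In any sum of this kind, fewer cells of a type and less RNA per cell cannot be told apart.

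Over all neutrophil barcodes, 540 of 4913 genes rose in KO neutrophils and 886 fell (edgeR quasi-likelihood test on sums per tumour, Benjamini-Hochberg adjusted p under 0.05). These are 11% and 18.0% of the genes tested, or 29.0% in either direction. Without the 28 deep barcodes, 4 of 3506 genes rose and 4 fell, 0.114% each way and 0.228% in all, and 533 had an unadjusted p under 0.05. With high doublet scores left out instead, 79 of 3801 genes rose (2.08%) and 225 fell (5.92%), 8.0% in all. Of the 1426 genes called over all barcodes, 497 were not tested without the deep barcodes. The other 929 all kept their direction. This is no separate support, since the barcodes up to 5000 UMIs are part of the full set. For the 502 of these 929 genes that rose, the median log2 fold change was 1.33 over all barcodes and 0.79 in barcodes up to 5000 UMIs. For the 427 that fell it was -1.50 and -1.07. Most calls were thus lost, and these medians were smaller in size, when deep barcodes were left out.

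**Figure D3:**
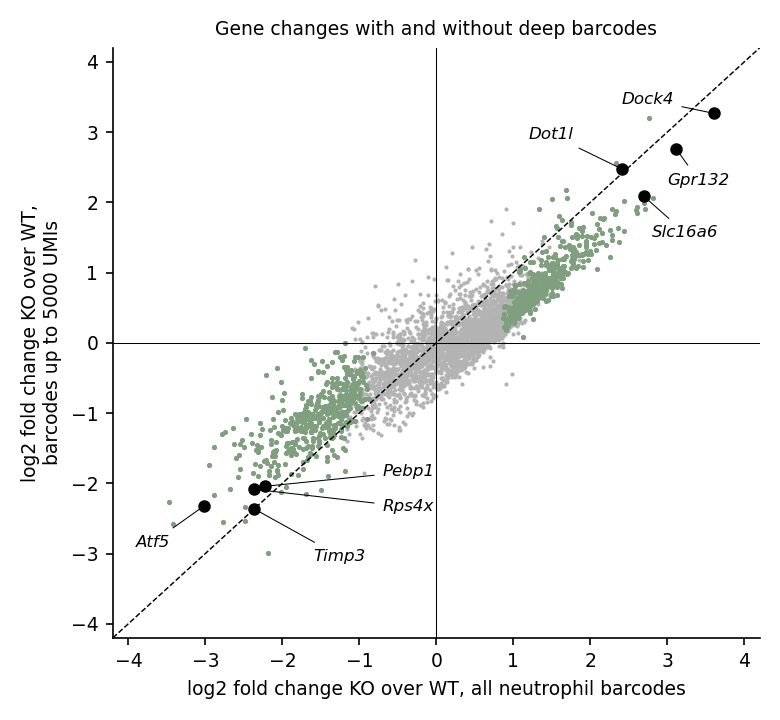
Log2 fold change, KO over WT, of each gene tested in both fits, with all neutrophil barcodes on the horizontal axis and barcodes up to 5000 UMIs on the vertical axis; the dashed line marks equal values. Green points were called over all barcodes, and the 8 black named points were called up to 5000 UMIs too, namely Dock4, Gpr132, Dot1l and Slc16a6 above 0 and Pebp1, Rps4x, Atf5 and Timp3 below 0.

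The 4 genes that rose in KO neutrophils up to 5000 UMIs were Dock4, Gpr132, Dot1l and Slc16a6, and their values there are in CPM scaled by the trimmed mean of M values (TMM). Dock4, an exchange factor that activates Rac GTPases (GRCm38 chromosome 12, 40445952 to 40846874), stood at 100 and 118 CPM in KO neutrophils, against 28.1 and 8.10 CPM in WT neutrophils. Both KO tumours lay above both WT tumours, with a log2 fold change of 3.27 ± 0.67 (SE; edgeR adjusted p = 0.0388). The WT values rest on 1 and 2 UMIs, and a UMI was found in 13.1% and 11.2% of KO barcodes, against 3.13% and 0.840% of WT barcodes.

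Gpr132, a G protein-coupled receptor of activated leukocytes (chromosome 12, 112850873 to 112868228), stood at 186 and 333 CPM in KO neutrophils, against 84.2 and 28.3 CPM in WT neutrophils. The log2 fold change was 2.76 ± 0.54 (SE; edgeR adjusted p = 0.0388), again with no overlap. Its WT values rest on 3 and 7 UMIs. Dot1l, the methyltransferase of histone H3 lysine 79 (chromosome 10, 80755206 to 80795461), stood at 150 and 172 CPM in KO neutrophils, against 28.1 and 28.3 CPM in WT neutrophils. This was a log2 fold change of 2.48 ± 0.51 (SE; edgeR adjusted p = 0.0388). The close WT values rest on only 1 and 7 UMIs.

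Slc16a6, a member of the monocarboxylate transporter family (chromosome 11, 109450855 to 109473598), stood at 217 and 333 CPM in KO neutrophils, against 56.1 and 64.8 CPM in WT neutrophils. Here the log2 fold change was 2.08 ± 0.45 (SE; edgeR adjusted p = 0.0487), with 2 and 16 UMIs in WT neutrophils. With barcodes thinned to 500 UMIs each, so that depth per barcode was equal, Dock4, Gpr132 and Slc16a6 passed again (edgeR adjusted p = 0.0250, 0.0419 and 0.0272), and Dot1l did not (0.0812). When free RNA was subtracted as well as the deep barcodes, the log2 fold changes of Dock4, Gpr132, Dot1l and Slc16a6 were 2.97, 2.41, 2.36 and 1.94, each with an edgeR adjusted p of 0.845.

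The 4 genes that fell in KO neutrophils up to 5000 UMIs were Pebp1, Rps4x, Atf5 and Timp3. Pebp1, an inhibitor of Raf kinase (chromosome 5, 117282654 to 117287625), stood at 46.0 and 47.0 CPM in KO neutrophils, against 281 and 166 CPM in WT neutrophils. Atf5, a transcription factor of the stress response (chromosome 7, 44812256 to 44816658), stood at 27.9 and 15.7 CPM in KO neutrophils, against 84.2 and 130 CPM in WT neutrophils. Timp3, an inhibitor of matrix metalloproteinases that binds the extracellular matrix (chromosome 10, 86300372 to 86349506), stood at 26.3 and 39.2 CPM in KO neutrophils, against 140 and 166 CPM in WT neutrophils. The log2 fold changes were -2.04 ± 0.42 for Pebp1, -2.32 ± 0.48 for Atf5 and -2.36 ± 0.44 for Timp3 (SE), each with an edgeR adjusted p of 0.0388. None of the 3 overlapped between the groups. In WT tumour 1 Pebp1, Atf5 and Timp3 rest on 10, 3 and 5 UMIs.

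Rps4x, a protein of the small ribosomal subunit (chromosome X, 102184941 to 102189394), stood at 260 and 314 CPM in KO neutrophils, against 1796 and 781 CPM in WT neutrophils. Its log2 fold change was -2.09 ± 0.41 (SE; edgeR adjusted p = 0.0388), and a UMI was found in 34.4% and 25.4% of KO barcodes against 81.3% and 45.8% of WT barcodes. Non-overlap alone was common, since KO lay above WT in 26.7% and below WT in 23.3% of all genes tested up to 5000 UMIs. Over all barcodes these shares were 33.6% and 34.1%.

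The direction of these changes was mostly shared by other barcode classes of the same tumours. In plain CPM, Dock4, Gpr132, Dot1l and Slc16a6 were each higher in both KO tumours than in both WT tumours in all 6 barcode classes. This held for 9.93% of the genes tested. The classes include the neutrophils, in which these genes were chosen for their rise. A share over all genes is thus not a like measure. Dock4 changed more in neutrophils than in mononuclear phagocytes over all barcodes (difference of log2 fold changes 2.57 ± 0.71 SE, edgeR adjusted p = 0.0333), and not by the test without deep barcodes (2.20 ± 0.86, edgeR adjusted p = 1). In mononuclear phagocytes Gpr132 stood at 84.3 and 73.1 CPM in KO tumours, against 16.9 and 22.9 CPM in WT tumours. In T and NK cells it stood at 191 and 201 CPM in KO tumours, against 45.2 and 55.3 CPM in WT tumours. Rps4x and Atf5 were lower in KO tumours in 6 of 6 classes, a pattern held by 2.48% of genes. Pebp1 was lower in 5 and Timp3 in 4 of the 6, and the neutrophils that chose these genes are again among the classes. Timp3 is made by stromal and tumour cells, and in phagocytes it stood at 218 and 244 CPM in KO tumours and 264 and 299 CPM in WT tumours. With free RNA subtracted as well as the deep barcodes, the log2 fold changes of Pebp1 and Timp3 were -7.52 and -4.78 (edgeR adjusted p = 0.845 each), and Rps4x and Atf5 had too few UMIs left to be tested. WT tumour 2 decided the call of Atf5 and Timp3 over all barcodes, since without it their log2 fold changes were -1.995 and -1.54 (edgeR adjusted p = 0.0796 and 0.115), whereas leaving out any 1 tumour kept the calls of the other 6 of the 8 genes over all barcodes.

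**Figure D4:**
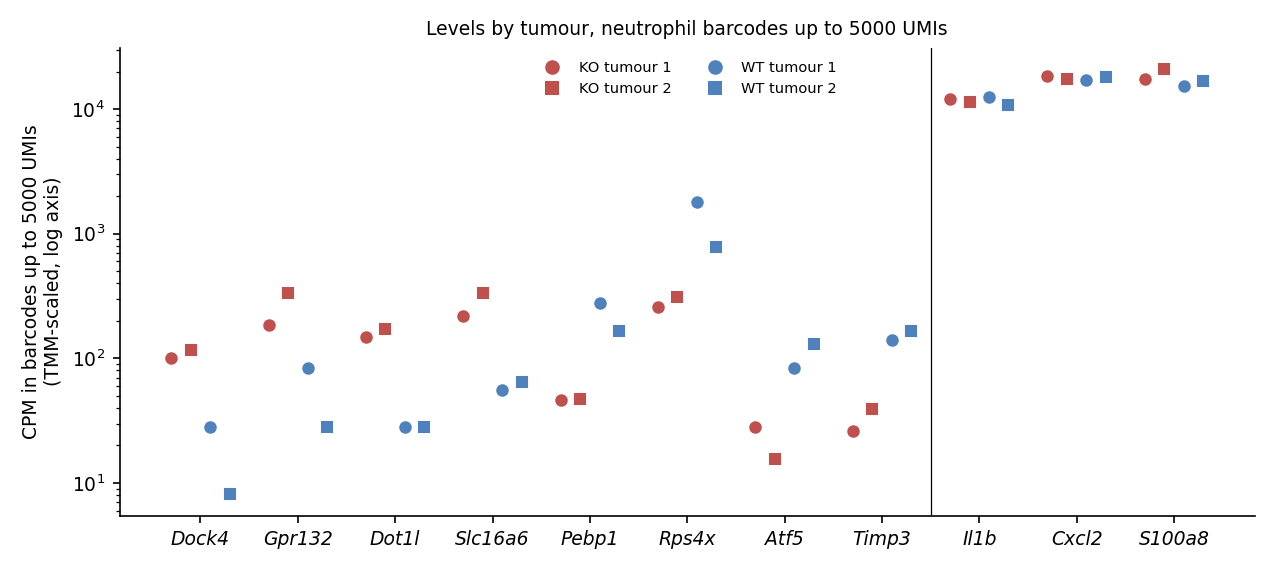
TMM-scaled CPM on a log axis, in neutrophil barcodes up to 5000 UMIs, for the 8 genes called there and for Il1b, Cxcl2 and S100a8, 1 point per tumour with KO left of WT. The 8 genes do not overlap between KO and WT, whereas Il1b (12065 and 11428 in KO, 12568 and 10864 in WT) and Cxcl2 do.

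Ribosomal protein genes, a group chosen after its values were seen, were lower in KO neutrophils as a whole. Of 77 tested over all barcodes 74 fell and none rose, with a median log2 fold change of -1.64 beside -0.01 over all genes. In barcodes up to 5000 UMIs 1 of 77 fell, Rps4x, with a median of -1.12 beside 0.04 over all genes, and no member had a positive value. Their UMIs summed there to 281 and 334 per 10000 in KO neutrophils, against 967 and 440 in WT neutrophils, so that WT tumour 1 with its 32 barcodes lay far above the rest. In mononuclear phagocytes the sum was 1105 and 1332 in KO tumours, against 2217 and 1573 in WT tumours. In tumour gene barcodes it was 1953 and 2129 in KO tumours, against 2360 and 2091 in WT tumours, with overlap. Every class outside neutrophils stood above them in this sum, in every tumour. The free RNA estimate up to 5000 UMIs was 12.4% and 11.01% in KO tumours and 22.3% and 19.1% in WT tumours. The part of free RNA in the difference was not tested for the group.

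The 12 largest rises over all barcodes were Dock4, Gpr132, Klhl6, Slc25a33, Fam129a, Nr4a3, Slc16a6, Rasip1, Crem, Gm14286, F5 and Dot1l. They rested mainly on ordinary barcodes, since 90 of their 1693 UMIs in KO neutrophils (5.32%) and 20 of 138 in WT neutrophils (14.5%) lay in deep ones. Their median log2 fold change was 2.70 over all barcodes and 2.10 up to 5000 UMIs. Nr4a3, an orphan nuclear receptor induced early after stimulation (chromosome 4, 48045153 to 48086447), stood at 286 and 443 CPM in KO neutrophils, against 112 and 85.0 CPM in WT neutrophils, up to 5000 UMIs. Its log2 fold change was 1.99 ± 0.43 (SE) and narrowly missed the threshold (edgeR adjusted p = 0.0506), which it passed after thinning to 500 UMIs (2.11, edgeR adjusted p = 0.0361). Crem, a repressor of cyclic AMP responses, stood at 229 and 208 CPM in KO neutrophils, against 0 and 72.9 CPM in WT neutrophils (edgeR adjusted p = 0.0776).

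Among the 12 largest falls over all barcodes were those of Emp2, Sdc2, Hist2h2ac, Mgst3, Hist1h1b, Rpa1, Hist1h2ap, Mybl2, Ahnak2, Dkk2 and Gpx8. Hist1h1b, Hist1h2ap and Hist2h2ac are replication-dependent histones and Rpa1 binds single-stranded DNA, whereas Sdc2 encodes a heparan sulfate proteoglycan, and Dkk2 an inhibitor of Wnt signalling. Of the 557 UMIs of these 12 genes in WT neutrophils, 471 (84.6%) lay in deep barcodes, against 15 of 66 (22.7%) in KO neutrophils. Hist1h1b, a linker histone made in S phase, stood at 12.4 and 7.26 CPM in KO neutrophils and 168 and 254 CPM in WT neutrophils over all barcodes, a log2 fold change of -4.37 ± 0.46 (SE; edgeR adjusted p = 0.00012). None of the 12 had enough UMIs to be tested up to 5000 UMIs.

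The gene lists are described by their counts over all barcodes, to be read against 11% risen and 18.0% fallen among all genes, and by their medians. In barcodes up to 5000 UMIs, no member of any of the 24 pathway lists passed the test, so none of the counts below was kept without the deep barcodes. Neutrophil markers outside the rule moved the same way, with 11 of 13 risen, medians of 1.23 over all barcodes and 0.58 up to 5000 UMIs, and both KO tumours above both WT tumours in 10 of 13 there. Their part in the lists was not tested. The part of the free RNA and of the other cells' markers given above was not tested list by list. At an unadjusted p under 0.05, 533 of the 3506 genes passed in that set.

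Of receptors for chemoattractants, 7 of 13 tested rose and 1 fell, with a median log2 fold change of 1.08, and 0.44 up to 5000 UMIs. Fpr2, a receptor for formylated peptides, stood at 907 and 672 CPM in KO neutrophils and 151 and 295 CPM in WT neutrophils over all barcodes (log2 fold change 1.67 ± 0.35 SE, edgeR adjusted p = 0.00296). Ptafr, the receptor for platelet-activating factor, and Ccrl2, which binds chemerin, rose over all barcodes with log2 fold changes of 1.36 and 1.24. Up to 5000 UMIs these were 0.70 and 0.60 (edgeR adjusted p = 0.378 and 0.460). Of adhesion and activating receptors 19 of 32 rose and none fell, with a median of 1.08, and 0.43 up to 5000 UMIs. Cd14, the co-receptor for lipopolysaccharide, stood at 3751 and 2832 CPM in KO neutrophils and 739 and 1291 CPM in WT neutrophils over all barcodes, a log2 fold change of 1.65 ± 0.36 (SE; edgeR adjusted p = 0.00397). In barcodes up to 5000 UMIs its log2 fold change was 1.03 ± 0.39 (edgeR adjusted p = 0.193).

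Of cytokine receptors 10 of 20 rose and none fell, with a median of 0.97, and 0.50 up to 5000 UMIs. Il1r2 stood at 2385 and 3765 CPM in KO neutrophils and 739 and 930 CPM in WT neutrophils over all barcodes, and the groups did not overlap. Without deep barcodes it stood at 2476 and 4017 CPM in KO neutrophils and 1178 and 1514 CPM in WT neutrophils, with a log2 fold change of 1.25 ± 0.39 (edgeR adjusted p = 0.125). Csf2ra, the alpha chain of the GM-CSF receptor, and Tnfrsf1a, a receptor for tumour necrosis factor, rose over all barcodes by 1.41 and 1.38 on the log2 scale. Their values up to 5000 UMIs were 0.78 and 0.70 (edgeR adjusted p = 0.315 and 0.409).

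Among products that neutrophils release, 6 of 14 chemokines and 10 of 17 cytokines and growth factors rose and none fell, with a median of 1.08 each. Without deep barcodes the medians were 0.49 and 0.43. Thbs1, thrombospondin 1, stood at 4505 and 3696 CPM in KO neutrophils and 757 and 2121 CPM in WT neutrophils up to 5000 UMIs, a log2 fold change of 1.44 ± 0.43 (SE; edgeR adjusted p = 0.112). Ccl5, a chemokine made mainly by T and NK cells, stood at 146 and 310 CPM in KO neutrophils and 28.1 and 56.7 CPM in WT neutrophils there (log2 fold change 2.07, edgeR adjusted p = 0.0776). The markers of T or NK cells summed in the same barcodes to 1.23 and 2.81 per 10000 in KO tumours and 0.279 and 0.133 in WT tumours, and their part in the Ccl5 value was not tested.

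The inflammatory genes that dominate the neutrophil profile were close between the groups once deep barcodes were left out. Il1b, which encodes interleukin 1 beta, stood at 12065 and 11428 CPM in KO neutrophils and 12568 and 10864 CPM in WT neutrophils up to 5000 UMIs, a log2 fold change of 0.01 ± 0.38 (SE; edgeR adjusted p = 0.995). Cxcl2 stood at 18483 and 17483 CPM in KO neutrophils and 17281 and 18153 CPM in WT neutrophils, a log2 fold change of 0.02 ± 0.38 (edgeR adjusted p = 0.986). Both overlapped between the groups. Over all barcodes the log2 fold changes were 0.66 and 0.65 (edgeR adjusted p = 0.189 and 0.212).

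Ccl3 and Ccl4, chemokines that attract leukocytes, had log2 fold changes of 0.30 and 0.38 up to 5000 UMIs (edgeR adjusted p = 0.816 and 0.718). Cd274, the checkpoint ligand PD-L1, stood at 1736 and 1043 CPM in KO neutrophils and 701 and 1400.5 CPM in WT neutrophils there, with overlap and a log2 fold change of 0.34 ± 0.40 (edgeR adjusted p = 0.754). Ptgs2, the enzyme that makes prostaglandin precursors, had a log2 fold change of -0.05 (edgeR adjusted p = 0.971). Of the list of immune inhibitory ligands and enzymes, 7 of 20 rose over all barcodes and none fell, with medians of 0.78 over all barcodes and 0.33 up to 5000 UMIs.

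Of granule and antimicrobial proteins 6 of 16 rose and 1 fell, with medians of 0.76 over all barcodes and 0.14 up to 5000 UMIs. Mmp9, gelatinase B of the tertiary granules, and Mmp8, the neutrophil collagenase, rose over all barcodes by 1.40 and 1.98 on the log2 scale (edgeR adjusted p = 0.00454 and 0.00371). Up to 5000 UMIs they had log2 fold changes of 0.77 and 1.18 (edgeR adjusted p = 0.322 and 0.192). Lcn2, a siderophore-binding protein of the specific granules, went the other way, with 261 and 321 CPM in KO neutrophils and 309 and 971 CPM in WT neutrophils up to 5000 UMIs. Its log2 fold change of -1.31 ± 0.40 did not pass there (edgeR adjusted p = 0.122) but did after thinning to 500 UMIs (-1.50, edgeR adjusted p = 0.0479), and WT tumour 2 alone lay well above the other 3 tumours.

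The list of NF-kappaB pathway and feedback genes had 13 of 21 risen and none fallen, with medians of 1.10 over all barcodes and 0.64 up to 5000 UMIs, where 14 of 21 had both KO tumours above both WT tumours, against 26.7% of all genes. Nfkb1, which encodes p105 and p50, stood at 329 and 494 CPM in KO neutrophils and 168 and 125 CPM in WT neutrophils up to 5000 UMIs. Its log2 fold change was 1.59 ± 0.41 (SE; edgeR adjusted p = 0.0776), and it passed after thinning to 500 UMIs (2.60, edgeR adjusted p = 0.0250). Birc3, an inhibitor of apoptosis induced by the pathway, stood at 441 and 486 CPM in KO neutrophils and 168 and 215 CPM in WT neutrophils (log2 fold change 1.19, edgeR adjusted p = 0.125). Of neutrophil transcription factors 9 of 17 rose and none fell. Ets2 and Bhlhe40 were among those that rose, with log2 fold changes of 1.60 and 1.28 over all barcodes. Up to 5000 UMIs their values were 0.97 and 0.90 (edgeR adjusted p = 0.194 and 0.251). Of immediate early and AP-1 genes 9 of 30 rose and 1 fell, Klf4, at -1.34 ± 0.30 (SE; edgeR adjusted p = 0.00494). Klf4 was at -1.25 ± 0.35 up to 5000 UMIs (edgeR adjusted p = 0.0920).

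Of the type I interferon response list 3 of 45 members rose and none fell. These 3, Rsad2, Slfn1 and Trim30a, whose promoters are printed above, had log2 fold changes of 1.40 ± 0.35, 1.08 ± 0.34 and 0.97 ± 0.31 over all barcodes (SE; edgeR adjusted p = 0.00799, 0.0257 and 0.0292). Up to 5000 UMIs Rsad2, an antiviral enzyme also called viperin, stood at 3032 and 2410 CPM in KO neutrophils and 1262 and 1983 CPM in WT neutrophils. The adjusted p values of the 3 genes were then 0.394, 0.644 and 0.759 by edgeR. The median of the list was 0.41 over all barcodes and -0.14 up to 5000 UMIs, where 12 of 43 members were positive. Of interferon-gamma response genes 3 of 26 rose and 1 fell. Of MHC class I genes 1 of 22 rose, H2-Q7, and of MHC class II and costimulation genes 4 of 7 rose.

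MHC class II genes and markers of mononuclear phagocytes were both mostly higher in KO neutrophils. Cd74, the invariant chain, stood at 939 and 756 CPM in KO neutrophils and 252 and 607 CPM in WT neutrophils up to 5000 UMIs (log2 fold change 0.82, edgeR adjusted p = 0.324). The 11 phagocyte markers summed in these barcodes to 15.7 and 14.1 per 10000 in KO tumours and 11.1 and 7.72 in WT tumours. The Cd74 value of WT tumour 1 rests on 9 UMIs. Of 9 such markers tested over all barcodes 5 rose and none fell, with a median log2 fold change of 1.47, and 0.96 up to 5000 UMIs. C1qb, Csf1r and Apoe were above 0 in all 4 tumours, C1qc was at 0 in WT tumour 1, and C1qa and Adgre1 were at 0 as the rule required. Their part in the class II values was not tested.

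Of glycolysis and hypoxia genes 2 of 29 rose and 2 fell, with medians of -0.25 over all barcodes and -0.29 up to 5000 UMIs. Slc16a3, the lactate exporter MCT4, rose by 1.95 on the log2 scale, and Tpi1, triosephosphate isomerase, fell by 0.90 over all barcodes. Without deep barcodes their log2 fold changes were 1.36 and -1.09 (edgeR adjusted p = 0.101 and 0.143). Of lysosome and cathepsin genes 7 of 21 rose, of lipid mediator genes 4 of 12 and of inflammasome and pattern recognition genes 4 of 14, and none of these fell. Of survival and cell death genes 4 of 21 rose and 1 fell, and of oxidase and nitric oxide genes 2 of 13 rose and 1 fell. Of cell cycle genes 12 of 14 fell over all barcodes, with a median of -1.69, and -0.99 for the 9 tested up to 5000 UMIs.

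Lists of neutrophil state were compared as well. Of tumour neutrophil genes 12 of 24 rose and none fell, with medians of 0.96 over all barcodes and 0.35 up to 5000 UMIs. Of circulating mature neutrophil genes 7 of 14 rose and 1 fell, with medians of 0.89 and 0.16. The lists share members with the granule and receptor lists, so their counts are not separate evidence.

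Hnrnpa2b1 itself, the gene that the labels give as knocked out in the injected cells, was not called in neutrophils. It stood at 375 and 364 CPM in KO neutrophils and 505 and 498 CPM in WT neutrophils up to 5000 UMIs, without overlap, a log2 fold change of -0.43 ± 0.35 (SE; edgeR adjusted p = 0.608). In tumour gene barcodes, in plain CPM, it was 377 and 311 in KO tumours and 585 and 598 in WT tumours, and the position of the edit is not given in the sources used here. Of 25 hnRNP family genes 5 fell in neutrophils over all barcodes and none rose, with medians of -0.44 and, up to 5000 UMIs, -0.36. Hnrnpa1, of the same family, fell by 1.69 on the log2 scale over all barcodes (edgeR adjusted p = 0.00924).

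Whether the KO change was particular to neutrophils was tested against 3 leukocyte classes of the same tumours, as an interaction of class and group. Against mononuclear phagocytes 166 of 14018 genes differed (1.18%), 47 with the more positive change in neutrophils and 119 with the more negative. With size factors by relative log expression (RLE) the split was 117 and 96 of 213. Against monocytes 108 of 7254 differed (1.49%), 76 more positive and 32 more negative, and by RLE 40 and 37 of 77. Against T and NK cells 252 of 11327 differed (2.22%), 208 more positive and 44 more negative, and by RLE 208 and 115 of 323. Without barcodes over 5000 UMIs among the neutrophils, 5, 3 and 8 genes differed (0.0362%, 0.0464% and 0.0712%).

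Mmp8 and Slpi differed between neutrophils and both phagocytes and monocytes also without deep barcodes. Values in these fits have their own TMM scaling over both classes and all barcodes. Mmp8 stood at 204 and 147 CPM in KO neutrophils and 56.8 and 34.9 CPM in WT neutrophils, but at 15.5 and 7.16 CPM in KO phagocytes and 6.73 and 40.8 CPM in WT phagocytes. The difference of log2 fold changes was 3.72 ± 0.49 (SE; edgeR adjusted p = 6.11e-10), and 2.88 ± 0.55 without deep barcodes (edgeR adjusted p = 0.00137). The phagocyte values overlapped, and WT tumour 2 was the highest of them.

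Slpi, an inhibitor of neutrophil elastase that neutrophils carry in abundance, stood at 2584 and 2511 CPM in KO neutrophils and 924 and 1336 CPM in WT neutrophils. In phagocytes it stood at 267 and 162 CPM in KO tumours, against 15.6 and 56.2 CPM in WT tumours, a larger ratio, and the difference of log2 fold changes was -1.52 ± 0.33 (SE; edgeR adjusted p = 0.00212). Without deep barcodes it was -2.16 ± 0.43 (edgeR adjusted p = 0.00223). Against monocytes it was -1.52 (edgeR adjusted p = 0.0357). The part of neutrophil RNA free in the droplets in these phagocyte and monocyte values was not tested.

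Against T and NK cells, Acsl1, Cd9 and Cdc42ep2 had the more positive change in neutrophils also without deep barcodes. Acsl1, which activates long-chain fatty acids, stood at 279 and 444 CPM in KO neutrophils and 27.0 and 66.1 CPM in WT neutrophils, against 11.7 and 13.8 CPM in KO T and NK cells and 15.5 and 22.2 CPM in WT T and NK cells. The difference of log2 fold changes was 3.33 ± 0.46 (SE; edgeR adjusted p = 1.59e-09), and 2.66 ± 0.52 without deep barcodes (edgeR adjusted p = 0.00183). Cd9, a tetraspanin, stood at 1828 and 1469 CPM in KO neutrophils and 431 and 884 CPM in WT neutrophils, against 92.1 and 80.4 CPM in KO T and NK cells and 199 and 226 CPM in WT T and NK cells. Both genes thus stood in opposite directions in the 2 classes, without overlap within either.

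Depth per barcode was made equal by thinning each neutrophil barcode to 500 UMIs, the lowest number the rule admits, so that none was left out. At that depth 35 of 1890 genes were called (1.85%), 7 of which rose (0.37%) and 28 fell (1.48%), and 12 of the 28 were ribosomal protein genes. The share of neutrophil barcodes with at least 3 UMIs of the type I interferon list was 86.9% and 91.1% in KO tumours and 81.8% and 80.0% in WT tumours, a difference of 8.08 points (exact permutation p = 0.333). Its size turned on the choices, with 4.804 points without thinning, 3.23 at 1 UMI or more, 3.88 at 5 or more, 4.38 without high doublet scores, 4.53 at a marker sum of at least 60 and -0.507 with at least 3 rule genes detected. In T and NK cells, thinned alike, it was 29.0% and 29.3% in KO tumours and 24.7% and 18.6% in WT tumours. Up to 5000 UMIs the neutrophil shares were 86.4% and 90.1% in KO tumours and 84.4% and 83.2% in WT tumours, still without overlap.

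The tumour neutrophil list gave 96.7% and 91.1% in KO tumours and 84.8% and 84.7% in WT tumours, a difference of 9.12 points (exact permutation p = 0.333). This was 2.54 points without thinning, 0.887 at 1 UMI or more (exact permutation p = 1), 17.3 at 5 or more, 14.5 with at least 3 rule genes detected and 6.01 without deep barcodes. The circulating mature list gave 56.7% and 66.4% in KO tumours and 63.6% and 50.6% in WT tumours, with overlap (exact permutation p = 0.667), and the difference changed sign without KO tumour 2 or WT tumour 2. For the NF-kappaB list the shares were 84.5% and 88.5% in KO tumours and 66.7% and 62.4% in WT tumours. In T and NK cells they were 47.3% and 48.9% in KO tumours and 29.0% and 17.4% in WT tumours, so this list was higher in the KO tumours in both classes.

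**Figure D5:**
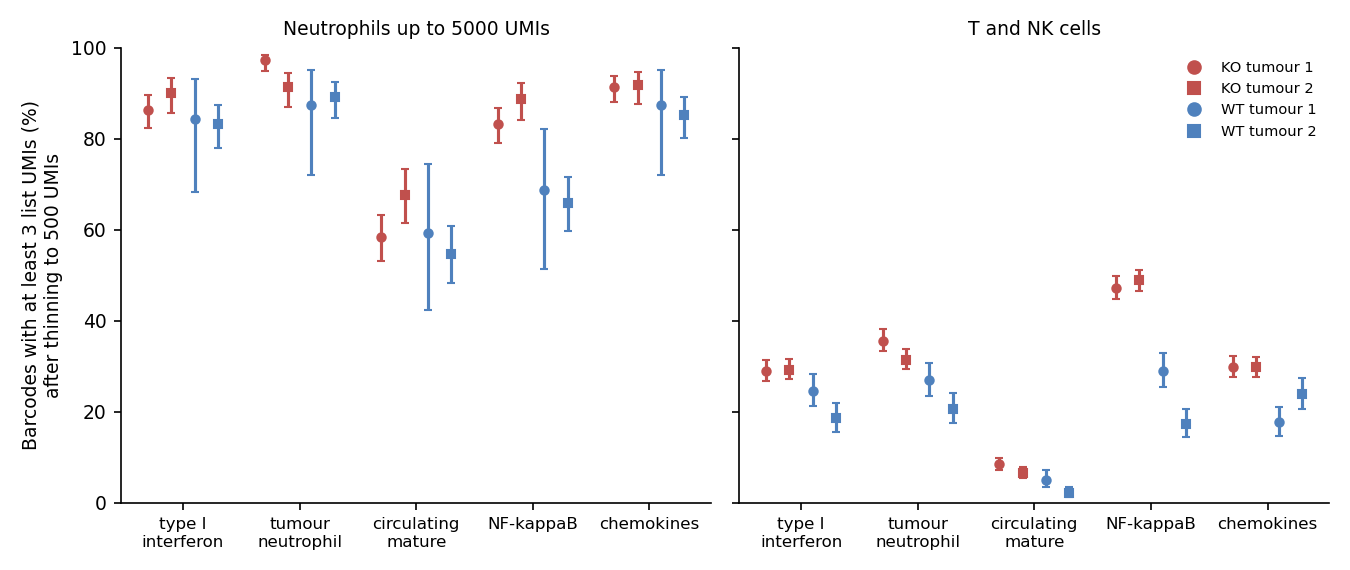
Percentage of barcodes with at least 3 UMIs of a list after thinning to 500 UMIs, in neutrophils up to 5000 UMIs and in T and NK cells, KO left of WT, circles for tumour 1 and squares for tumour 2, with 95% Wilson intervals of counting error. Neutrophils stand above T and NK cells in every list shown, and for the NF-kappaB list both KO tumours (83.3% and 88.8%) stand above both WT tumours (68.8% and 66.0%).

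Single genes at equal depth varied in their pattern. The shares here are over all neutrophil barcodes, with the deep ones included. The part of the deep barcodes in these shares was not tested. With the deep barcodes left out, the Il1b levels given above overlapped between the groups. Il1b was found in 90.5% and 89.4% of thinned neutrophil barcodes in KO tumours and 84.8% and 79.2% in WT tumours, against 8.17% and 4.99% of T and NK barcodes in KO tumours and 3.32% and 3.58% in WT tumours. Before thinning the neutrophil shares were 97.3% and 97.4% in KO tumours and 87.9% and 90.2% in WT tumours. Acod1 was found in 71.4% and 76.6% of thinned neutrophil barcodes in KO tumours and 60.6% and 51.0% in WT tumours, without overlap. Ptgs2 was found in 33.2% and 28.1% in KO tumours and 24.2% and 38.04% in WT tumours, with the KO tumours between the WT tumours.

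Within each tumour the barcodes ranged widely in calprotectin. After thinning, S100a8 and S100a9 together had a median of 9 and 13 UMIs in KO tumours and 16 and 8 in WT tumours, and a highest value of 138 and 128 in KO tumours and 44 and 97 in WT tumours. Barcodes of each tumour were divided by this sum into 3 groups of equal number. Retnlg is a gene of the same rule, so its values in these groups are a description only. Retnlg stood at 2.46 and 6.41 per 10000 UMIs in the highest group of KO tumours, against 0.164 and 1.03 in the lowest group. In WT tumours it stood at 3.64 and 11.8 in the highest group, against 0 and 1.18 in the lowest.

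Slpi was also higher in the highest group in all 4 tumours. Slpi stood at 26.4 and 29.2 per 10000 in the highest group of KO tumours, against 15.9 and 20.8 in the lowest, and at 25.5 and 27.8 in the highest group of WT tumours, against 18.2 and 10.6. Il1rn, the antagonist of the interleukin 1 receptor, was lower in the highest group in 3 of the 4 tumours, with 22.5 and 14.9 in the highest group of KO tumours, against 35.2 and 23.8 in the lowest. In WT tumours it was 10.9 and 12.5 in the highest group, against 7.27 and 16.7 in the lowest. The highest and lowest groups of WT tumour 1 held 11 barcodes each, with 14 and 10 UMIs of Slpi and 6 and 4 of Il1rn. S100a8 and S100a9, which divided the barcodes, are genes of the rule too. Since a higher S100a8 count leaves fewer of the 500 UMIs for other genes, these are descriptions of the thinned barcodes with no test.

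The condition that no UMI of Adgre1, C1qa or a Cd3 gene be present removed barcodes unequally. It took 284 and 115 barcodes in KO tumours and 5 and 50 in WT tumours, or 43.6% and 32.9% in KO tumours and 13.2% and 16.4% in WT tumours of those that met the rest of the rule. Of these, 224 and 96 in KO tumours and 4 and 36 in WT tumours held C1qa, a complement component made by macrophages. The median was 1 C1qa UMI, and exactly 1 was found in 74.6% and 83.3% of them in KO tumours and 100% and 88.9% in WT tumours.

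S100a8 in the removed barcodes stood at 96.4 and 120 per 10000 in KO tumours and 255 and 41.1 in WT tumours, against 153 and 175 in KO and 106 and 97.0 in WT neutrophils, and at 0.385 or less in phagocytes. With UMIs of Adgre1 and C1qa allowed, a choice made after the data were seen, the neutrophil share of kept barcodes was 6.43% and 3.495% in KO tumours and 0.293% and 2.66% in WT tumours. With them 1010 genes rose and 1120 fell over all barcodes. Of the 1426 genes called before, 1308 were called again in the same direction, though the earlier barcodes are part of this larger set.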

How the data were processed

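The deposited files hold whole-number UMI counts per gene and barcode of 4 libraries from the 10x Genomics droplet method, not normalized by the authors. Reads were processed with Cell Ranger 5.0.1 against mm10 per the labels' protocols, while the file headers name Cell Ranger 6.1.2. Seurat 5.1.0 is listed in the submitters' processing notes, with no role given. Of the 55450 feature identifiers, 100% were found in GENCODE vM21, from which coordinates came.

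Comparison classes were set by marker rules (mononuclear phagocytes, monocytes, T and NK cells, tumour gene barcodes, other). Leukocyte barcodes are the neutrophils and the first 3 of these. Sums of counts over each class of each tumour were tested with edgeR 4.0.16 in R 4.3.3 (quasi-likelihood test, TMM, filterByExpr, Benjamini-Hochberg over all genes tested, threshold 0.05). Interactions kept the tumour as a block. DESeq2 1.42.0 was an alternative. Genes of the rule were kept in the fits and given no test. Cells were handled with scanpy 1.11.5, scipy 1.17.1 and numpy 2.4.6 in Python 3.11.15. Scrublet's own threshold marked no barcode in the WT libraries and was not used. Barcodes of highest score, at 0.8% per 1000 barcodes of a library, were left out as an alternative.

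Members and lists were chosen with earlier results of these data known. The genes named were, among those called at a mean of at least 50 CPM with no overlap, the 12 of largest change each way, the 3 of smallest p in each list, the 5 of largest interaction each way, and a few always described. Some of the genes so chosen are not reported here. The genes called up to 5000 UMIs or after thinning, the ribosomal protein genes, Ccl5, Lcn2, Acsl1, Crem and Pf4 were chosen after their values were seen. Counts of genes with near-identical copies, such as ribosomal proteins, histones, H2-Q7 and Gm5483, are uncertain, since reads can be shared between copies.

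The labels do not say whether the tumours of a group came from separate mice or what a tumour number shares, so p-values measure only the spread between these tumours. On simulated counts the dispersion was set at 0.04, not estimated from these data, and changed genes had a mean of at least 50 CPM. There the test over all barcodes recovered 18% of genes changed 2-fold and 86% of those changed 4-fold, with 4 false calls. Up to 5000 UMIs it recovered 16% and 82%, with 6 false calls. Apart from the changed genes the simulated tumours shared the same profile. The false calls thus do not cover an unequal weight of deep barcodes.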

Additional observations from a re-analysis of the deposited data

Results flagged for a closer look

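Each gene in this part had a KO change that differed between neutrophils and another class by the interaction test in edgeR, and the value is the log2 fold change in neutrophils minus that in the other class, over all barcodes.

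Against mononuclear phagocytes the change in neutrophils was the more negative for Il1f9 (-4.47), Hist1h1b (-3.01), Hist1h2ap (-2.74), Col6a2 (-2.68), Fstl1 (-2.66), Ace (-3.08) and Slpi (-1.52). Ace missed the threshold over all barcodes (edgeR adjusted p = 0.0513) and passed without those over 5000 UMIs (0.0421). It was the more positive for Mmp8 (3.72), mt-Ta (2.61), Dock4 (2.57) and mt-Tc (2.32). Il1f9 in phagocytes stood at 3.04 and 1.15 CPM in KO tumours and 0 and 0.0826 CPM in WT tumours, so its value rests on a class near 0. The value of 11.74 for Cma1 rests on KO tumour 1, with 656 and 3.86 CPM in KO neutrophils and 0 and 0 in WT neutrophils, and is no bound.

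Against monocytes the change was the more negative for Hist1h1b (-3.29), Hist1h2ap (-2.81), Col6a2 (-2.45), Vcan (-1.99), Ecm1 (-1.97) and Slpi (-1.52). It was the more positive for Mmp8 (4.15), Igfbp7 (3.95), Pf4 (3.73) and Phactr2 (3.48). Igfbp7 rests on KO tumour 1, with 219 and 13.5 CPM in KO neutrophils and 0 and 15.6 CPM in WT neutrophils. The value of 11.47 for Fabp4 rests on 452 and 13.5 CPM in KO neutrophils and 0 and 6.68 CPM in WT neutrophils, and on 1.53 and 1.91 CPM in KO monocytes and 0 and 162 CPM in WT monocytes, and is no bound.

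Against T and NK cells it was the more negative for Ace (-4.38), Lcn2 (-3.69), Hist1h1b (-2.72), Dcn (-2.39), Col6a2 (-2.33), Col3a1 (-2.24), Retnla (-2.16), Saa3 (-2.05) and Pou2f2 (-1.92). It was the more positive for Acsl1 (3.33), Klhl6 (3.27), Slc25a33 (3.06), Cdc42ep2 (2.91), Gm5483 (2.84) and Cd9 (2.62). Lcn2 in T and NK cells stood at 12.7 and 0 CPM in KO tumours and 0 and 0.766 CPM in WT tumours, near 0. Ace there stood at 19.9 and 11.4 CPM in KO tumours and 2.02 and 0.766 CPM in WT tumours, also low.

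Without barcodes over 5000 UMIs the genes that still differed were Il1f9, mt-Ta, Mmp8, Slpi and Ace against phagocytes, and Pf4, Mmp8 and Slpi against monocytes. Against T and NK cells they were Lcn2, Cdc42ep2, Acsl1, Cd9, Pou2f2, Saa3, Ace and Retnla. In neutrophils over all barcodes the KO and WT tumours overlapped for mt-Ta, mt-Tc, Igfbp7, Lcn2, Dcn, Col3a1 and Retnla.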

How the results depend on the processing

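The count of genes changed in KO neutrophils, 1426 over all barcodes, depended on which barcodes entered. It was 8 without barcodes over 5000 UMIs and 0 with free RNA subtracted as well (153 at an unadjusted p under 0.05), both chosen after seeing the data. It was 0 with free RNA subtracted alone (91 unadjusted), 35 after thinning to 500 UMIs, 304 without high doublet scores, 243 with a marker sum of at least 60, 875 with at least 3 rule genes detected and 348 by DESeq2. It was 1413 with RLE size factors, 653 of them risen, and 1175 without a filter on low counts. Leaving out each tumour gave 419 to 1445 (419 without KO tumour 1 and 584 without KO tumour 2), and the count was 874 without WT tumour 2. The replicate block gave 990, and the crossed pairing of numbers 1813. Tumours of the same number did not deviate together (r = -0.146), so the numbers are not taken to pair them.

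Interactions numbered 5 instead of 166 against phagocytes, 3 instead of 108 against monocytes and 8 instead of 252 against T and NK cells without deep barcodes. Leaving out each tumour gave 33 to 414, 63 to 119 and 4 to 338, and against T and NK cells 4 without KO tumour 1 and 6 without KO tumour 2.

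The difference in the share of leukocyte barcodes reversed to -0.017 points without high doublet scores and lay between -4.30 and 4.53 when 1 tumour was dropped. The interferon list share reversed to -0.507 points with at least 3 rule genes detected, and the circulating mature list share ranged from -2.11 to 10.9 (-0.437 without KO tumour 2). With free RNA subtracted, log2 fold changes reversed for Il1b (-0.26), Ptgs2 (-0.35), Cxcl2 (-0.28) and Ccl3 (-0.053). With deep barcodes out as well they were -0.22 for Il1b, -0.28 for Ptgs2, -0.20 for Cxcl2 and -0.51 for Cxcl9. After thinning they were -0.12 for Il1b, -0.16 for Ptgs2 and -0.027 for Trim30a. Ptgs2 was -0.049 without deep barcodes. Lcn2 lay between -0.99 and 0.57 when 1 tumour was dropped, with 0.57 without WT tumour 2. The cause was not tested. Of 116 named genes tested without deep barcodes, 100 lost their call. WT tumour 1 was the smallest, with 33 neutrophil barcodes and 55156 UMIs.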
